A study of Rattus norvegicus with 2 samples.

Results

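The Reg lectins are small secreted proteins of the gut and pancreas that share a C-type lectin fold, and 5 of their genes, Reg1a, Reg3a, Reg3b, Reg3g and Reg4, were chosen by their symbols among the 32883 genes counted in rat jejunal epithelium. Of these 5 genes, 4 gave transcripts, while Reg3a gave none in any barcode of either rat. The study sequenced single cells of the proximal jejunum of 2 untreated male Sprague Dawley rats, an outbred laboratory strain, aged 6 to 8 weeks and weighing 180 to 200 g. The animals had been fasted overnight, and the epithelium was released with EDTA and dispase. Each rat gave 1 droplet library, so n = 2 throughout, and both rats belong to 1 group. Transcripts were counted by unique molecular identifiers (UMIs), which remove copies from amplification.

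Reg3b and Reg3g are antibacterial lectins that the intestinal epithelium secretes into the mucus, where they keep bacteria away from the tissue. Their genes respond to microbial sensing and to interleukin 22, which acts through the receptor subunits Il22ra1 and Il10rb and the transcription factor Stat3. Reg1a, also called lithostathine, is abundant in pancreatic juice and has been described as a growth factor, and Reg4 is known from mucus-secreting and enteroendocrine cells. Extl3 has been described as a receptor for Reg proteins.

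Cells with more than 5000 UMIs and at most 40% mitochondrial UMIs were retained, 5988 of 12033 barcodes in rat 1 and 2230 of 8252 in rat 2, with medians of 12200 and 13962 UMIs. The Reg genes were kept out of the clustering. They were read in enterocytes (4078 cells of rat 1 and 1140 of rat 2), goblet cells (281 and 148), Paneth-transcript cells (65 and 21), endocrine cells (20 and 11), tuft cells (12 and 129) and CFTR high expresser (CHE) cells (7 and 78), beside stem/cycling cells and secretory progenitors. CHE cells are rare cells of the upper crypt and villus with high levels of the chloride channel Cftr. Without thinning, all 85 of them held Cftr UMIs, and Best4 was seen in 57.1% and 88.5% of them and Otop2 in 100% and 88.5%. After thinning to 5000 UMIs per cell, Cftr was seen in 100% of both rats, Best4 in 42.9% and 73.1% and Otop2 in 85.7% and 74.4%. Of the other named epithelial cells, 17.9% and 14.2% held Cftr, 0.0349% and 0.189% Best4, and 0.0174% and 0% Otop2. Of the endocrine cells of both rats 100% held Chga after thinning to 5000 UMIs per cell, and of the tuft cells 100% and 97.7% held Dclk1. Other markers were sparser. Tuft cells held Avil in 91.7% and 100%, Pou2f3 in 50% and 81.4% and Gfi1b in 16.7% and 41.9%. Trpm5 (0% and 42.6%) and Il25 (0% and 6.20%) were not seen in thinned tuft cells of rat 1. Endocrine cells held Chgb in 90% and 100%, Tac1 in 30% and 36.4%, Tph1 in 20% and 72.7%, and Neurog3 in 0%. The Paneth-transcript class is a range of the goblet lineage, cells with at least 5 UMIs of Lyz2 and Defa24 after thinning. It rests on Lyz2 (98.5% and 100% of its cells). Defa24 was seen in 13.8% and 4.76%, against 12.5% and 0.547% of the other named epithelial cells. Wnt3 was seen in 4.62% and 19.0%, Dll4 in 3.08% and 0%, and Wnt11 in 0%. Of the lineage, 38 and 7 cells lay near the limit, with 3 to 6 UMIs. Enterocytes were split within each rat into early, middle and late groups of equal size by a score of 10 villus genes.

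The rats differed in what they supplied. Rat 2 held most CHE and tuft cells, and rat 1 most stem/cycling cells, and the goblet class of rat 1 came mostly from a cluster led by Clca1 and Itln1 (208 of 281 cells) and that of rat 2 from a cluster led by Zg16 and Guca2a (119 of 148). The median mitochondrial share of the enterocyte groups was 13.1% to 15.4% in rat 1 and 23.1% to 28.1% in rat 2, and its part in differences between the rats was not tested. Only 4 retained barcodes occurred in both libraries. Levels are given as UMIs of the gene per 1000000 UMIs of the class (CPM), with 95% exact Poisson intervals that cover counting error only.

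The Reg3 genes and Reg1a lie side by side. In the RefSeq annotation of the GRCr8 assembly, Reg3b, a Reg3b pseudogene, Reg3a, Reg1a, a long non-coding RNA gene and Reg3g follow each other on chromosome 4, while Reg4 is on chromosome 2. Reads of such related genes can be split or lost in counting, so the value of any single member is less certain than its decimals show. All 5 genes matched RefSeq promoters, given as 300 bases from 250 before to 50 after the gene start. The 30 bases from 45 to 16 before the start are shown for the 4 genes with transcripts, because the 3 chromosome 4 genes hold the letters TATAAA there and Reg4 does not. Capitals mark TATAAA.
Reg3b, chr4:112419731-112419760, plus strand: ctccctcatgtcccgtTATAAAaacacagc
Reg3g, chr4:112484754-112484783, minus strand: ccttcaatcctatTATAAAagctgtcatct
Reg1a, chr4:112450421-112450450, plus strand: atttactccttctgtaTATAAAagacctac
Reg4, chr2:188507639-188507668, plus strand: ttcaggcaagaaggtataagagctgcagga

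TATAAA began 29 bases before the start in Reg3b and Reg1a and 32 bases before it in Reg3g. On either strand, it occurs in 14.2% of all 33469 promoters of that length. The letters TTCNNNGAA, the core of STAT-type sites, which read the same on both strands, occur in 8.87% of all promoters. Among the 5 genes they were found in Reg1a, beginning 242 bases before the start, and in Reg3b, 129 bases before it. These 2 windows are shown because Reg1a and Reg3b are the pair found at high levels in CHE cells, with TTCNNNGAA in capitals. A match of letters is a description and not a measured site.
Reg1a, chr4:112450216-112450245, plus strand: ttgtttgtTTCTGGGAAtgatgaacattgg
Reg3b, chr4:112419636-112419665, plus strand: tcacctgctctTTCTTGGAAactctttgag

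Each of the 4 measured genes had its own distribution over the cell classes. Reg3b was present throughout the enterocytes and far higher in CHE cells. Reg3g was present in enterocytes and low or absent in CHE cells. Reg1a was high in CHE cells and low in the other classes, and Reg4 was found mainly in goblet, Paneth-transcript and endocrine cells. Of the Reg1a UMIs in the 10 named classes, CHE cells gave 61.6% in rat 1 and 92.1% in rat 2, although they were 0.122% and 4.68% of the cells. CHE cells of rat 2 also gave 51.4% of the Reg3b UMIs of that rat. Goblet cells gave 71.2% and 69.1% of the Reg4 UMIs of the 10 classes, and endocrine cells, which were 0.348% and 0.660% of the cells, gave 9.43% and 22.8%.

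**Figure D1:**
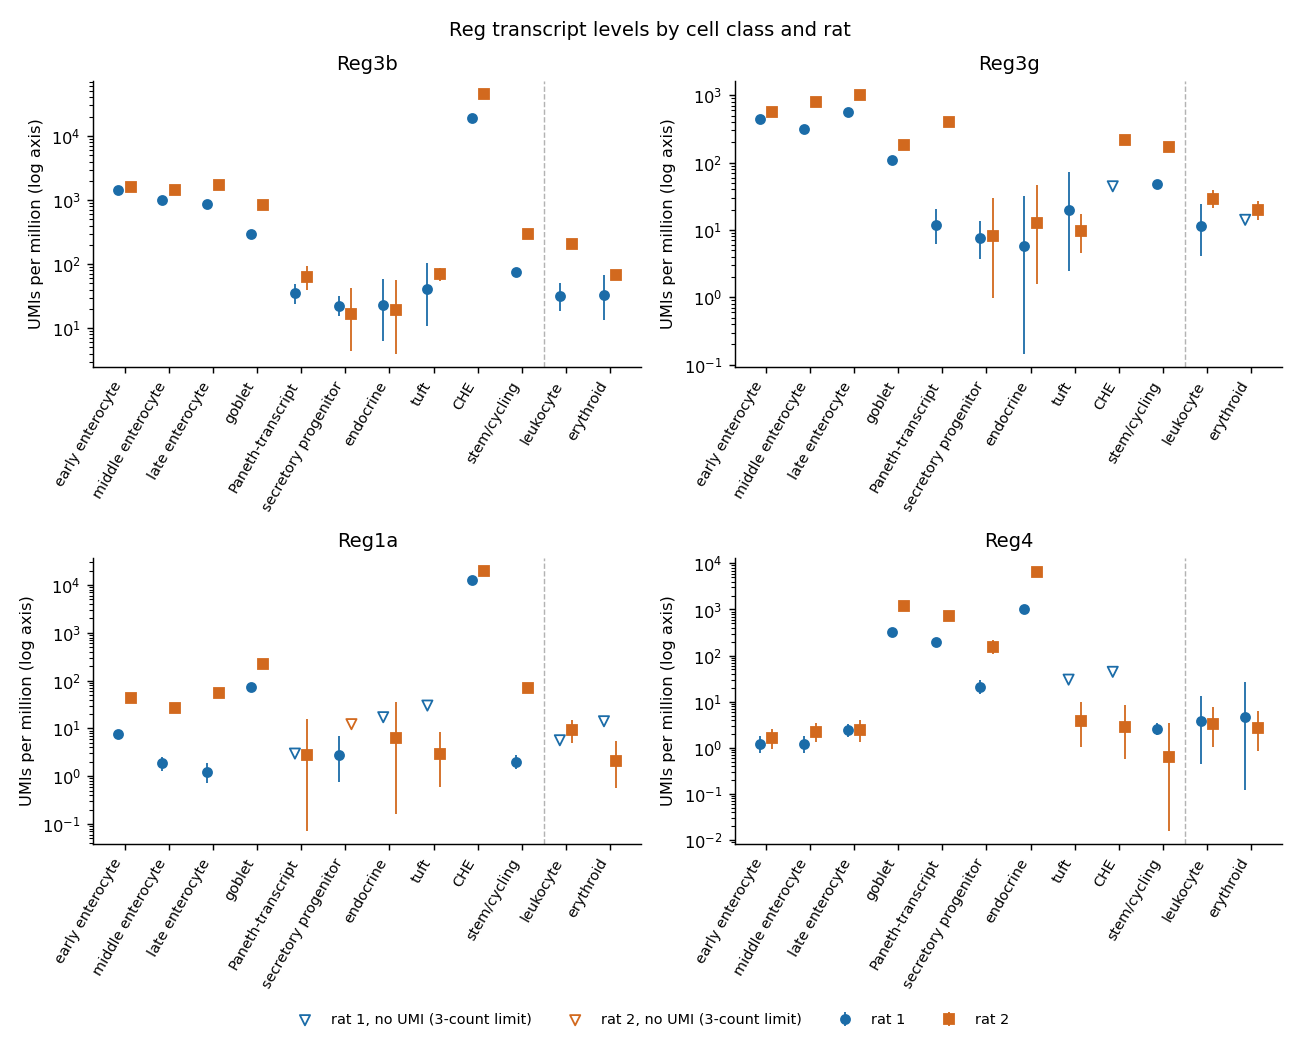
CPM (log axis) of Reg3b, Reg3g, Reg1a and Reg4 in 10 epithelial classes and, right of the dashed line, in leukocytes and erythroid cells, for rat 1 (blue circles) and rat 2 (orange squares), with 95% exact Poisson intervals. Open triangles mark sums without a UMI, at the level that 3 counts would give. Reg3b and Reg1a stand highest in CHE cells, Reg3g in late enterocytes and Reg4 in endocrine cells, in both rats.

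Reg3b in enterocytes averaged 1118 CPM (interval 1109 to 1127) for rat 1 and 1587 CPM (1572 to 1602) for rat 2. After thinning to 5000 UMIs, a Reg3b UMI was found in 58.8% of the enterocytes of rat 1 (57.3 to 60.3, by the Clopper-Pearson method) and in 60.8% of those of rat 2 (57.9 to 63.6), against 69.3% and 78.2% without thinning. Free RNA gives some UMIs to every droplet. Leukocytes, which should lack the gene, held one in 21.7% and 31.4% of thinned cells and erythroid cells in 22.2% and 21.2%, with unthinned medians of 11039 and 5843 UMIs in leukocytes and 5448 and 7362 in erythroid cells, against 12069 and 24434 in enterocytes. Leukocytes gave 17 Reg3b UMIs in rat 1 (18.6 to 51.2 CPM) and 207 CPM in rat 2, where 59.9% of the UMIs came from 1 cell, without which the level was 83.4 CPM. The enterocyte share and level stood above those of both kinds of blood cell in both rats.

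Reg3g in enterocytes averaged 434 CPM (429 to 440) for rat 1 and 751 CPM (741 to 762) for rat 2. A UMI was found in 26.7% (25.4 to 28.1) and 29.3% (26.7 to 32.04) of thinned enterocytes, against 8.70% and 9.32% of leukocytes and 0% and 7.76% of erythroid cells. None of the 27 erythroid cells of rat 1 held one, which allows a share of up to 11.1%. The level was thus carried by fewer cells than that of Reg3b.

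Both Reg3 genes were concentrated in few enterocytes. In thinned cells, the 1% of enterocytes with the most Reg3g UMIs held 41.6% of them in rat 1 and 41.2% in rat 2, and the top 10% held 88.6% and 90.3%. For Reg3b the top 1% held 13.5% and 21.3%, and the top 10% held 55.9% and 66.6%. By the ratio of variance to mean over thinned enterocytes, Reg3g ranked 9 among 5415 genes in rat 1 and 7 among 5077 in rat 2, and Reg3b ranked 23 and 12. The genes ranked had a mean of at least 0.05 UMIs per thinned cell.

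Enterocytes rich in Reg3g were mostly rich in Reg3b too. Of the 195 enterocytes of rat 1 with at least 10 thinned Reg3g UMIs, 165 (84.6%) had at least 10 Reg3b UMIs, against 15.9% of the other enterocytes. In rat 2 it was 80 of 95 (84.2%), against 14.2%. Conversely, 21.1% and 35.1% of the Reg3b-rich enterocytes were Reg3g-rich. Spearman's rho of both genes over cells was 0.511 in 4078 cells of rat 1 and 0.529 in 1140 cells of rat 2, given as a description of cells that share a library. Of the Reg3g-rich enterocytes 5 and 3 had no Reg3b UMI after thinning.

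**Figure D2:**
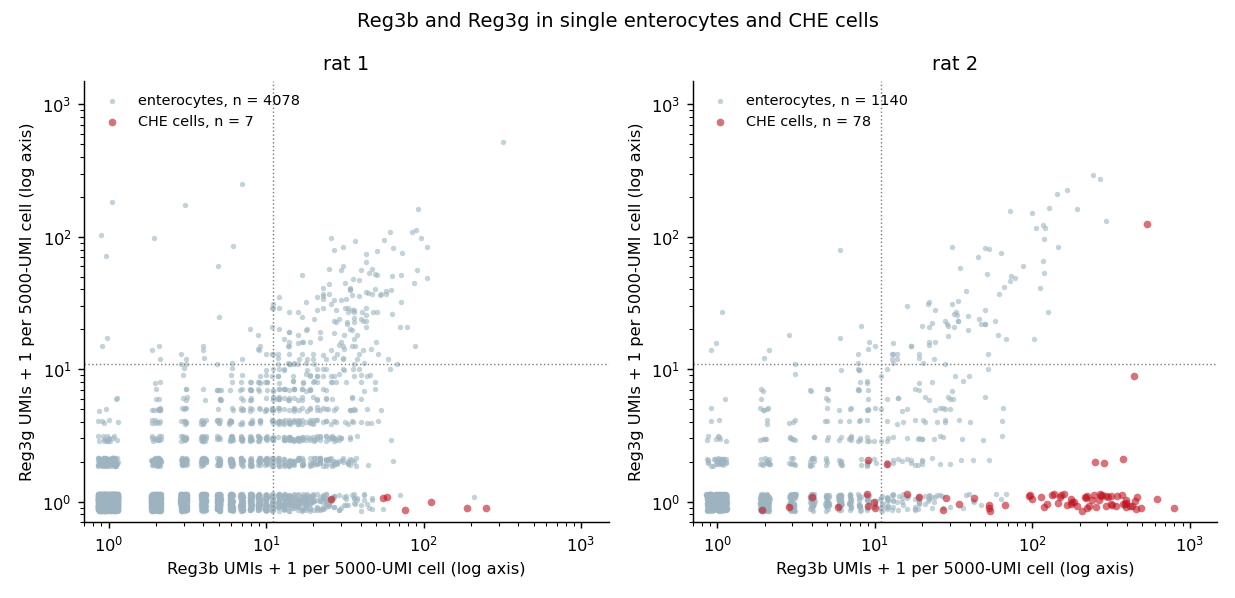
Reg3b (x axis) and Reg3g (y axis) UMIs plus 1 in each enterocyte (grey) and CHE cell (red) after thinning to 5000 UMIs, on log axes, with a small random offset for visibility, for rat 1 (left) and rat 2 (right). Dotted lines mark 10 UMIs. Enterocytes high in Reg3g lie mostly right of the vertical line, and all but 1 of the CHE cells lie below the horizontal line.

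Within the late enterocytes, the cells with at least 10 thinned Reg3g UMIs (96 of rat 1 and 43 of rat 2) were set beside the rest as a description, with no test. The 2268 genes ranked had enough UMIs in all late enterocytes and also in the Reg3g-rich cells, so genes low in those cells could drop out. Ranked by the smaller of the log2 ratios of the 2 rats, with Reg genes left out, Gpx2, a glutathione peroxidase, came first. Its level was 649 CPM in the Reg3g-rich cells and 294 CPM in the rest for rat 1, and 241 and 84.0 CPM for rat 2. Fam43a, Cxcl16, Ubd and Ccl20 followed. Cxcl16 and Ccl20 encode chemokines, and Ubd a ubiquitin-like protein induced by cytokines. Ccl20 was at 509 against 38.9 CPM in rat 1 and 60.6 against 38.6 CPM in rat 2, so that the size of its difference depended on the rat. Reg3b was at 6473 against 474 CPM in rat 1 and 8649 against 918 CPM in rat 2.

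Along enterocyte maturity, the CPM of Reg3g was highest in the late group of both rats, while that of Reg3b had no course that both rats shared. Reg3b stood at 1441, 996 and 880 CPM in early, middle and late enterocytes of rat 1 and at 1619, 1449 and 1730 CPM in those of rat 2, so that on the CPM scale it was lowest late in rat 1 and highest late in rat 2. Reg3g stood at 440, 317 and 565 CPM in rat 1 and at 559, 807 and 1017 CPM in rat 2. The middle group of Reg3g was the lowest in rat 1 and lay between the others in rat 2, and in rat 2 1 cell held 30.0% of the UMIs of the early group. The share of thinned cells with a Reg3b UMI went from 72.4% (early) to 59.8% and 44.2% (late) in rat 1 and from 64.5% to 56.1% and 61.8% in rat 2. For Reg3g this share fell from 37.7% to 22.3% and 20.1% in rat 1 and rose from 26.3% to 28.9% and 32.6% in rat 2. The rats thus shared no course in the share of cells with Reg3g.

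In finer steps, with the enterocytes of each rat in 10 groups of equal size by the villus score, Reg3b of rat 1 was at 567 CPM in the lowest group, 2031 CPM in group 3, 430 CPM in group 7 and 1796 CPM in group 10. The share of its cells with a UMI followed, at 48.4%, 89.0%, 39.5% and 54.4%. In rat 2 Reg3b ranged from 983 CPM in group 6 to 2974 CPM in group 7, and the share from 48.2% in group 4 to 76.3% in the lowest. Reg3g was at 216 and 211 CPM in the lowest group of the rats and at 1197 and 1047 CPM in the highest. Its highest value in rat 2, 1882 CPM, was in group 7, where its share of cells was also highest, at 46.5%. Rat 2 had 114 cells in each group and rat 1 407 or 408.

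**Figure D3:**
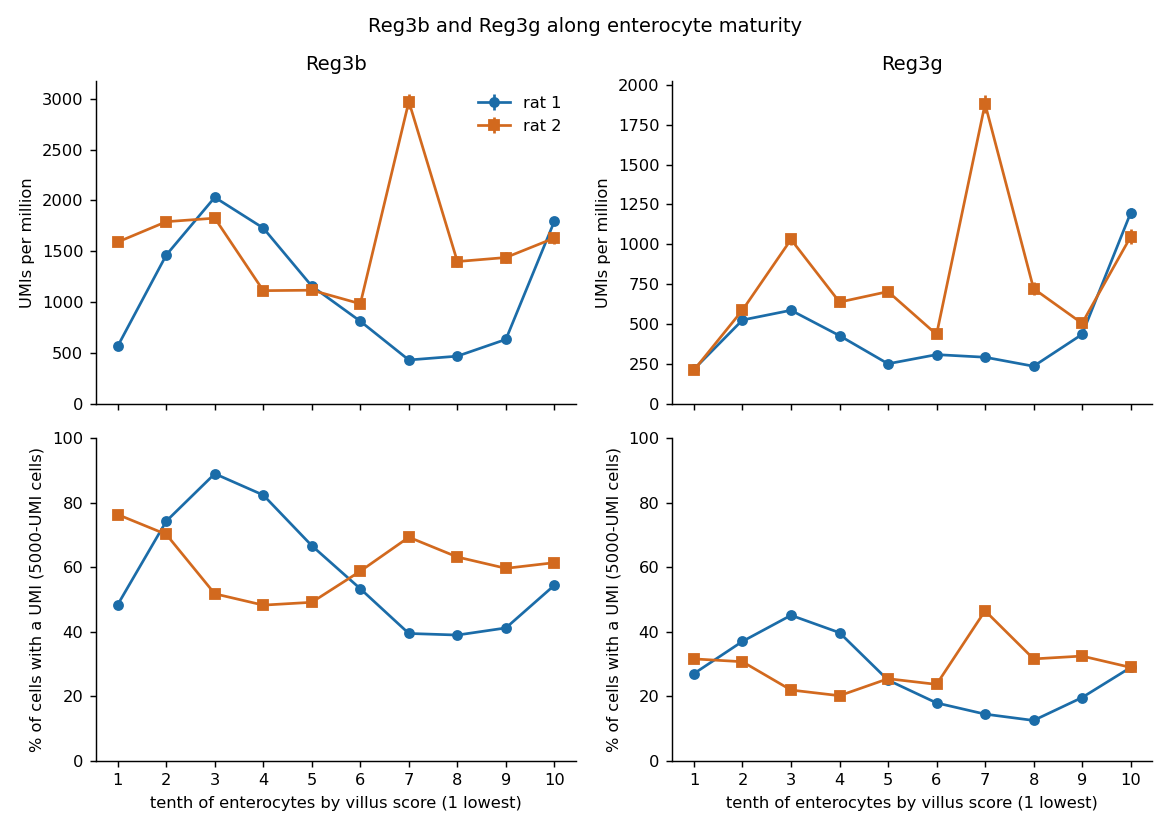
Reg3b (left) and Reg3g (right) in 10 groups of enterocytes ordered by villus score within each rat. Upper panels give CPM with 95% exact Poisson intervals, and lower panels the percentage of cells with a UMI after thinning to 5000 UMIs, for rat 1 (blue) and rat 2 (orange). Rat 1 has peaks in group 3 and, in level, in group 10 for both genes, and rat 2 has its highest level in group 7.

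Classes were compared on UMI counts summed per rat and class, with edgeR's quasi-likelihood test in 1 model of 20 sums and Benjamini-Hochberg adjustment over the 10067 genes tested. A gene was called at an adjusted p under 0.05. Reg3a, without a UMI, could not be tested. Late against early enterocytes asked whether Reg levels follow maturation. None of the 4 Reg genes was called, where 0.417% of all genes were, 0.308% higher and 0.109% lower (42 by edgeR, with 2224 at an unadjusted p under 0.05 and 842 by DESeq2). The smallest edgeR adjusted p among them was 0.40, for Reg4. The log2 fold change was 1.49 ± 1.22 (SE) for Reg3g, with 1.26 in rat 1 and 1.77 in rat 2, and 0.62 ± 0.83 for Reg3b, with 0.19 in rat 1 and 1.01 in rat 2. The Reg3b value turned to -0.23 when the sums were scaled by their totals alone. Scaling by totals in place of TMM moved the median gene by -0.76 on the log2 scale in this comparison and by 0.24 to 0.90 in the other 5, so the fold changes below are relative to the TMM scale.

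CHE cells held the highest level of Reg3b and Reg1a of any class. Reg3b stood at 19088 CPM in the 7 CHE cells of rat 1 (18060 to 20159) and at 44910.1 CPM in the 78 of rat 2 (44507 to 45316), which is 17.1 and 28.3 times the level over all enterocytes of the same rat. All 85 cells held Reg3b UMIs, from 37 to 374 UMIs with a median of 141 in rat 1 and from 1 to 3007 with a median of 490 in rat 2. Reg3b made up 1.45% of the UMIs of the median CHE cell of rat 1 and 4.02% in rat 2, and 15.5% in the highest cell. Each CHE value lay above those of every enterocyte group of both rats, and the log2 fold change against enterocytes was 4.00 ± 0.62 (edgeR adjusted p = 0.00059), with 3.12 in rat 1 and 4.37 in rat 2.

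Reg1a was at 13076 CPM in CHE cells of rat 1 (12227 to 13967) and 19333 CPM in rat 2 (19069 to 19600). It was found in 6 of 7 and 78 of 78 cells, with 0 to 305 UMIs per cell (median 124) in rat 1 and 3 to 1266 (median 167.5) in rat 2. Enterocytes held 3.74 CPM in rat 1 (3.25 to 4.29) and 40.6 CPM in rat 2 (38.2 to 43.0). The log2 fold change was 8.82 ± 1.34 (edgeR adjusted p = 0.00052), with 11.10 in rat 1 and 8.46 in rat 2. Rat 2 held 1.48 times the Reg1a level of rat 1 in CHE cells, and 5.65, 14.7 and 44.8 times that of rat 1 in early, middle and late enterocytes. Reg1a and Reg3b were the 2 Reg genes called higher in CHE cells, where 5.13% of all genes were called higher and 7.04% lower, and 6.8% were higher with the rat as a block.

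Together Reg1a and Reg3b took 3.59% of the UMIs of the median CHE cell in rat 1 and 6.02% in rat 2, and up to 15.9%. From cell to cell, Spearman's rho of both genes was 0.180 over the 7 thinned cells of rat 1 and -0.0058 over the 78 of rat 2, given as a description. Leaving the 5 Reg genes out of the library sizes, an alternative chosen after the data were seen, left both calls in place.

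Reg3g was absent or low in CHE cells. None of the 7 CHE cells of rat 1 held a UMI, which allows up to 44.4 CPM, against 434 CPM in the enterocytes of that rat. The limit covers counting error only, and 7 cells could miss a rare Reg3g-rich cell, so no fold is drawn from it. In rat 2 Reg3g was at 219 CPM, found in 15 of 78 cells, and 1 cell held 83.6% of the UMIs. Without that cell the level was 36.2 CPM, against 28.7 CPM in leukocytes and 19.6 CPM in erythroid cells of the same rat. After thinning, 8.97% of the CHE cells of rat 2 (3.68 to 17.6) held a Reg3g UMI, an interval that holds the 9.32% of leukocytes. The log2 fold change was -2.71 ± 1.17 and was not called (edgeR adjusted p = 0.16). With the rat as a block it was -3.11 ± 0.79 and was called (edgeR adjusted p = 0.0094), where that fit called 12.7% of all genes lower. Reg4 gave 0 UMIs in CHE cells of rat 1 and 3 in rat 2.

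Outside CHE cells, Reg1a was a rare transcript carried by few cells. Of the other epithelial cells, 2.37% in rat 1 and 15.5% in rat 2 held a UMI, and the 10 cells with the most held 64.5% and 51.5% of the UMIs. Only 3 cells of rat 1 (2 goblet cells and 1 enterocyte) and 10 of rat 2 (4 goblet cells, 5 enterocytes and 1 other) reached 10 thinned UMIs. Of these cells, 2 of 3 and 8 of 10 held a UMI of Cftr, Best4 or Otop2, as did 39.7% and 41.4% of all epithelial cells outside the CHE class. Early, middle and late enterocytes held 7.77, 1.85 and 1.21 CPM in rat 1 and 43.9, 27.1 and 54.0 CPM in rat 2. Leukocytes of rat 2 held 9.14 CPM, and 3.28 CPM without 1 cell.

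In goblet cells, whose role is to secrete mucus, Reg4 was the 1 Reg gene called. It stood at 329 CPM in rat 1 (311 to 347) and 1198 CPM in rat 2 (1155 to 1241), against 1.58 and 1.99 CPM in enterocytes and 3.76 and 3.27 CPM in leukocytes. A UMI was found in 36.7% (31.0 to 42.6) and 71.6% (63.6 to 78.7) of thinned goblet cells and in 0.809% and 0.702% of enterocytes. The log2 fold change was 8.39 ± 0.81 (edgeR adjusted p = 6.8e-06), with 6.79 in rat 1 and 8.76 in rat 2, where 10.3% of all genes were called higher and 4.24% lower.

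Reg4 differed between the 2 goblet clusters, and between the rats within the cluster led by Clca1 and Itln1. In the cluster led by Zg16 and Guca2a, Reg4 was at 1039 and 1340 CPM in rats 1 and 2, found in 68.5% and 74.8% of thinned cells. In the cluster led by Clca1 and Itln1 it was at 128 and 737 CPM, in 25.5% and 58.6%. The part of the cluster make-up in the difference between the rats was not tested. Secretory progenitors, the cycling cells of the lineage, held 21.2 and 155 CPM, and 1 of the 9 cells of rat 2 gave 81.6% of the latter. In both rats the order was the same, and whether it follows maturation was not tested.

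The other Reg genes were lower or unevenly spread in goblet cells. Reg3b was at 293 and 839 CPM, of which 1 cell gave 35.3% in rat 2. Its log2 fold change against enterocytes was -1.63 ± 0.75 (edgeR adjusted p = 0.16) and -1.84 ± 0.48 with the rat as a block (edgeR adjusted p = 0.0082). Reg3g was at 111 and 183 CPM, with -2.49 ± 1.15 (edgeR adjusted p = 0.16) and -2.53 ± 0.72 in the blocked fit (edgeR adjusted p = 0.013), where 13.2% of all genes were called lower. Of its goblet UMIs 46.8% and 61.5% came from 1 cell in each rat. Reg1a was at 73.8 and 221 CPM, but 75.7% and 48.9% of these UMIs came from 1 cell in each rat, and without them the levels were 18.01 and 114 CPM. Its log2 fold change was 2.30 ± 1.18 (edgeR adjusted p = 0.20), and 3.06 ± 0.60 in the blocked fit (edgeR adjusted p = 0.0014), where 17.8% of all genes were called higher. Its sign was negative, and it was not called, when the rats were merged without integration.

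Paneth cells are the lysozyme- and defensin-secreting cells of the crypt base. The comparison of Paneth-transcript with goblet cells called none of the 4 Reg genes and 0.0% of all genes by edgeR, with 516 at an unadjusted p under 0.05, 44 by DESeq2 and 44 by edgeR with the rat as a block. Reg3b was at 34.7 CPM (24.2 to 48.3) and 62.3 CPM (39.0 to 94.3) in Paneth-transcript cells, within the leukocyte interval of 18.6 to 51.2 CPM in rat 1 and with an interval that holds the 83.4 CPM of leukocytes without 1 cell in rat 2. Its log2 fold change against goblet cells was -4.00 ± 0.95 (edgeR adjusted p = 0.53), and -3.76 ± 0.60 with the rat as a block (edgeR adjusted p = 0.0089). DESeq2 called it too, at an adjusted p of 0.0013. Reg1a gave 0 UMIs in rat 1, which allows up to 2.98 CPM, and 1 UMI in rat 2. It was called lower in the blocked fit (edgeR adjusted p = 0.021), where 0.368% of all genes were called lower and 0.0695% higher, and the fitted size for a gene so close to 0 depends on the prior count.

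Reg4 in Paneth-transcript cells was at 193 CPM (166 to 222) and 722 CPM (636 to 816), found in 26 of 65 and 13 of 21 thinned cells. The log2 fold change against goblet cells was -1.20 ± 0.97 (edgeR adjusted p = 0.93), a difference within the spread between the rats. Reg3g was at 11.9 and 396 CPM in rats 1 and 2, but 139 of the 140 UMIs of rat 2 came from 1 cell, without which the level was 3.004 CPM. After thinning 1 cell of each rat held a Reg3g UMI, 1.54% (0.0389 to 8.28) and 4.76% (0.120 to 23.8), intervals that overlap those of leukocytes, 2.42 to 20.8 and 5.93 to 13.8.

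**Figure D4:**
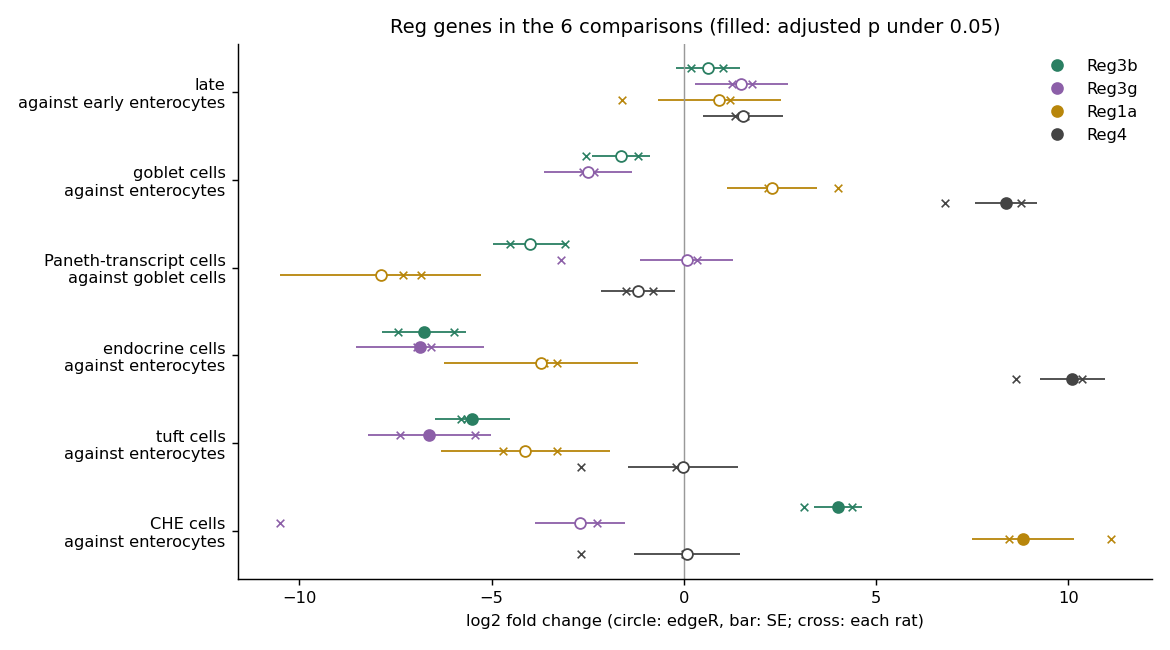
Log2 fold change (x axis) of Reg3b, Reg3g, Reg1a and Reg4 in 6 comparisons of cell classes, as the edgeR estimate (circle) with its standard error (bar) and as the difference within each rat (crosses), with called genes filled. Reg4 is called higher in goblet and endocrine cells, Reg1a and Reg3b in CHE cells, and Reg3b and Reg3g lower in endocrine and tuft cells.

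Endocrine cells, which release gut hormones, held the highest Reg4 level of any class. It was 1013 CPM in the 20 cells of rat 1 (869 to 1173) and 6382 CPM in the 11 of rat 2 (5991 to 6791). In rat 1 the interval holds the 1039 CPM of the goblet cluster led by Zg16 and Guca2a, which is a part of its class. A UMI was found in 9 cells of each rat, with 0 to 67 UMIs per cell (median 0) in rat 1 and 0 to 334 (median 63) in rat 2. The 3 cells with the most held 74.6% and 67.6% of the UMIs. The log2 fold change against enterocytes was 10.10 ± 0.85 (edgeR adjusted p = 1.3e-06), with 8.65 in rat 1 and 10.36 in rat 2, where 8.6% of all genes were called higher.

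Reg4 was unevenly spread over endocrine cells. Tph1, the rate-limiting enzyme of serotonin synthesis, was found in 4 cells of rat 1 and 8 of rat 2, and these cells held 65.5% and 99.6% of the Reg4 UMIs. Cells with Tac1, the tachykinin precursor, numbered 6 in each rat and held 72.9% and 65.1%. With 20 and 11 cells these shares are descriptions of few cells.

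Reg3b and Reg3g were low in endocrine and tuft cells, and these comparisons share the enterocyte sums with those of goblet and CHE cells. Endocrine cells held 4 and 3 Reg3b UMIs (22.9 and 19.2 CPM) and 1 and 2 Reg3g UMIs. Tuft cells, the chemosensory cells of the epithelium, held 40.1 CPM (10.9 to 103) and 69.5 CPM (54.5 to 87.4) of Reg3b and 20.1 and 9.53 CPM of Reg3g. Tuft and endocrine levels of both genes lay at or near those of blood cells, so expression in them was not detectable above free RNA at this depth. Against enterocytes, the log2 fold change in endocrine cells was -6.76 ± 1.09 for Reg3b (edgeR adjusted p = 0.00046) and -6.86 ± 1.67 for Reg3g (edgeR adjusted p = 0.0089), where 11.5% of all genes were called lower. In tuft cells it was -5.50 ± 0.98 for Reg3b (edgeR adjusted p = 0.00093) and -6.62 ± 1.59 for Reg3g (edgeR adjusted p = 0.0073), where 11.4% of all genes were called lower.

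Reg1a and Reg4 were near or at 0 in tuft cells. Reg1a gave 0 UMIs in rat 1 and 3 in rat 2, and Reg4 gave 0 and 4. Reg1a was not called in tuft cells (edgeR adjusted p = 0.20) but was with the rat as a block (edgeR adjusted p = 0.019), where 18.6% of all genes were called lower. In endocrine cells Reg1a gave 0 and 1 UMIs and was not called (edgeR adjusted p = 0.35). The limit that 3 counts allow in endocrine cells of rat 1, 17.2 CPM, lies above the enterocyte level of that rat, so no difference could be seen there.

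Among stem/cycling cells of the crypt, Reg3b was at 74.2 and 298 CPM in rats 1 and 2. The level of rat 1, 67.6 CPM without 1 cell, lay above the leukocyte interval of 18.6 to 51.2 CPM. Of the UMIs of rat 2 1 cell gave 85.8%, and without it the level was 43.2 CPM, below the level of leukocytes without 1 cell. Reg3g was at 47.9 and 173 CPM, and at 35.8 and 18.4 CPM without 1 cell in each rat. In thinned cells of rat 1, Reg3b was seen in 15.3% of stem/cycling cells (13.3 to 17.4), an interval within that of leukocytes (10.9 to 36.4), and in 48.4% of the lowest group of enterocytes. Reg4 was at 2.62 and 0.623 CPM.

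Reg3a was not detected. With 0 UMIs among 99986348 in rat 1 and 66469907 in rat 2, a level of up to 0.0300 CPM and 0.0451 CPM is allowed over all barcodes. Within CHE cells the limits are 44.4 and 2.83 CPM. RefSeq lists 2 starts for it, and neither promoter holds TATAAA or TTCNNNGAA.

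The genes whose pattern over the 10 classes was most like that of each member were found by Pearson's r of log2(CPM + 1) within each rat, ranked by the lower of both values among 10501 genes. For Reg1a they were Wfdc21, LOC689230 and Tnfaip2, with lower r of 0.934, 0.897 and 0.883. For Reg3b they were AABR07010777.1 (0.936), Ces2, a carboxylesterase (0.932), and Guca2b, the peptide uroguanylin (0.893). For Reg3g they were AABR07030334.1 (0.890), Spns2 (0.884) and Dgkq (0.873), and for Reg4 Slc7a4 (0.958), Ptprn2 (0.955) and Syt13 (0.951). Reg1a and Reg3b had r of 0.768 and 0.909 with each other, and Reg3b and Reg3g 0.132 and 0.684. The classes share a library and differ in depth, so these values describe 10 points in each rat.

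Of 28 other mucosal defence genes, 25 were in the matrices and 15 were tested, 13 of them against goblet cells in the Paneth-transcript class, where Lyz2 and Defa24 chose the cells. None was called in late against early enterocytes or in the Paneth-transcript comparison. In goblet cells 7 were higher and none lower (median log2 fold change 1.80, against 0.02 over all genes), 46.7% of those tested, where 14.6% of all genes were called. They were led by Zg16, a mucus lectin that binds bacteria, at 8.25 ± 0.82, by Duoxa2, a maturation factor of an oxidase, and by the lectin Itln1, with Wfdc2 next. In endocrine cells 4 were higher and none lower, 26.7% of those tested, where 20.1% of all genes were called. Among those higher in both rats Itln1 led at 6.09 ± 0.98, with Wfdc2 and Lyz2 next. Lcn2 had the largest fold change, 6.95 ± 1.83, but was higher in rat 1 only and is named after its values were seen. In tuft cells 3 were higher (Camp, Wfdc2 and, in rat 2 only and named after its values were seen, Lyz2) and 2 lower (the galectins Lgals4 and Lgals9), 33.3% of those tested, where 22.0% of all genes were called, 10.6% higher and 11.4% lower. The cathelicidin Camp was at 10.25 ± 0.93 and Lgals4 at -1.85 ± 0.56, and neither galectin was called on library totals or at a limit of 20% mitochondrial UMIs.

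In CHE cells 3 of the 15 defence genes were higher and none lower (median -0.29, against -0.32 over all genes), where 12.2% of all genes were called. Lypd8, which binds flagella, stood at 18155 and 21909 CPM in CHE cells against 3253 and 2819 CPM in enterocytes, a log2 fold change of 2.61 ± 0.71 (edgeR adjusted p = 0.025). The galectin Lgals2 was at 10440 and 8251 CPM against 1166 and 153 CPM, and Duoxa2 was at 14.8 CPM (1 UMI) and 23.6 CPM against 0.464 and 0.938 CPM.

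Of 31 genes of the interleukin 22, STAT3 and microbial sensing axis, 28 were in the matrices and 21 were tested. None was called in late against early enterocytes or between Paneth-transcript and goblet cells. Of the 21 genes, 4.76% were called in goblet cells (14.6% of all genes), 4.76% in endocrine cells (20.1%) and 14.3% in tuft cells (22.0%). These shares rest on few called genes, and the comparisons share the enterocyte sums. They are therefore not read as a result about the list. In CHE cells 2 were higher and none lower, 9.52% of those tested, where 12.2% of all genes were called. The median log2 fold change of the 21 genes was -0.06, against -0.32 over all genes. Tlr2, a receptor for bacterial lipoproteins, led at 14.8 CPM (1 UMI) and 132 CPM against 0.301 and 0.604 CPM in enterocytes (edgeR adjusted p = 0.00018). The second was Il6st, a shared receptor subunit of the interleukin 6 family, which was higher in rat 2 only and is named after its values were seen. Tlr2 was also the 1 gene called in goblet cells, at 1.23 and 19.1 CPM, and in endocrine cells, where it was higher in rat 2 only. In tuft cells Stat3 was lower, at 1 UMI in rat 1 and 29.5 CPM in rat 2 against 72.6 and 98.6 CPM in enterocytes (log2 fold change -2.77 ± 0.65, edgeR adjusted p = 0.0063). Il22ra1 was lower too, at 1 UMI and 6.67 CPM against 22.3 and 54.3 CPM (edgeR adjusted p = 0.034). A link to the Reg levels was not tested. The call of Il22ra1 was lost on library totals (edgeR adjusted p = 0.076) and at a limit of 20% mitochondrial UMIs. Jak1 was higher in tuft cells (log2 fold change 1.47 ± 0.39, edgeR adjusted p = 0.013), with 0.12 in rat 1 and 2.13 in rat 2.

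Il22ra1 stood at 14.5, 20.4 and 32.1 CPM in early, middle and late enterocytes of rat 1 and at 30.1, 54.4 and 78.5 CPM in those of rat 2, and at 29.6 and 25.5 CPM in CHE cells. Stat3 in CHE cells, at 88.8 and 83.1 CPM, lay within the range of the enterocyte groups, 64.4 to 110 CPM. Extl3 was too rare to be tested, with 0 to 20 UMIs in each class and rat.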

How the data were processed

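The authors deposited, for each of 2 rats, raw UMI counts per gene and barcode, made with Cell Ranger against Rnor6 and limited to called cells. The file headers name version 3.1.0 (rat 1) and version 5.0.1 (rat 2), so version and rat cannot be told apart. As in the methods of the study, retained cells had over 200 genes but under 5800, over 5000 UMIs, and a mitochondrial share of no more than 40%. They were integrated and clustered with Seurat 5.3.0 (2000 variable genes without the Reg genes and both gene lists, 20 principal components, resolution 0.3 and then 0.5). Clusters with Ptprc in over 25% of cells or led by hemoglobin were set aside. Marker levels for names were set after the clusters were seen. Unnamed clusters (38 and 26 cells) and a cluster mixing leukocyte and enterocyte transcripts (132 and 57) entered no comparison. Doublets were kept. Scrublet called 1.94% and 0.224% of cells, the latter so few that it may not have worked.

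Counts were summed per rat and class and tested with edgeR 4.0.16 in R 4.3.3 (TMM, default filter on low counts, Benjamini-Hochberg threshold of 0.05). Enterocytes are the mean of the early, middle and late sums, each class weighing the same. Log2 differences within a rat use a prior count of 2. The SE printed with an edgeR fold change is its absolute value divided by the square root of its F statistic, and was not given by the fit itself. Every class was taken from both animals, and the rat therefore pairs the sums. Differences between the rats, correlated over genes for 45 pairs of classes, gave a median r of 0.241 and a lowest r of 0.0405. The study's methods name no block, so it is an alternative, and its value is printed where it changes a call. With 2 animals, p-values measure the spread between these libraries. In simulated counts for CHE cells against enterocytes (8747 genes), 89 of 181 genes changed by 3 on the log2 scale were called, with 3.26% false calls. Apart from the changed genes, all simulated classes had the same pooled profile, the same spread for every gene and no pairing by rat. These rates may therefore not hold for the real sums.

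For shares, each cell was thinned to 5000 UMIs, a depth that every retained cell exceeded. Intervals are exact at 95%, zeros come with a limit of 3 counts, and both cover counting error only. The members and both gene lists were chosen with earlier results of these data known. Named genes are the 5 members, for each the 3 genes most alike in pattern (unique symbol, at least 20 UMIs in each rat), and from each list up to 4 called genes per comparison with the largest change in the same direction in both rats. The genes of Reg3g-rich late enterocytes were chosen after their values were seen. They had at least 100 UMIs over the late enterocytes of each rat and at least 20 in the Reg3g-rich ones. Promoter sequences are from RefSeq (GRCr8), another build than that of the counts, and no coordinate was carried over. Alternatives were DESeq2 1.42.0, no filter on low counts, the block, each rat alone, library totals in place of TMM, no upper gene limit, a 20% mitochondrial limit, doublets removed, no integration and, for maturity, a score without apolipoproteins. After seeing the data, a goblet class limited to 1 cluster and library sizes without Reg genes were added.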

Additional observations from a re-analysis of the deposited data

Results flagged for a closer look

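Barcodes outside the limits on cells entered no comparison but also held Reg transcripts, above the level that a count of 0 allows. In barcodes with at most 5000 UMIs, 5816 in rat 1 and 4439 in rat 2, Reg3b levels were 279 and 451 CPM, and Reg3g stood at 114 and 157 CPM. Reg1a stood there at 1.12 and 73.3 CPM, and 18 barcodes of rat 2 and none of rat 1 had at least 10 Reg1a UMIs. Reg4 stood there at 54.7 and 16.6 CPM, and 1 barcode of rat 1 held 119 of its UMIs, the highest count of any barcode of that rat.

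In barcodes with over 5000 UMIs and over 40% mitochondrial UMIs, 182 in rat 1 and 1510 in rat 2, Reg3b levels were 213 and 520 CPM and Reg3g stood at 178 and 186 CPM, below the enterocyte levels of both rats. Reg1a gave 0 UMIs there in rat 1 and stood at 36.6 CPM in rat 2, and Reg4 gave 3 UMIs in rat 1 and stood at 7.12 CPM in rat 2.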

How the results depend on the processing

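Over 24 results (4 Reg genes in 6 comparisons), no called Reg gene lost its call or changed direction under any alternative that gave a test. Counts of called Reg genes moved in goblet cells, from 1 to 3 without a filter on low counts, 4 with the replicate block, and 2 with no upper gene limit or with the rats merged without integration. In Paneth-transcript cells they moved from 0 to 1 with DESeq2 and to 2 without the filter, with the replicate block, and with goblet cells of the Zg16 and Guca2a cluster alone. Without the filter Reg3g in CHE cells and Reg1a in endocrine and tuft cells were also called. The block changed no call beyond those given beside the results. Counts over all genes were less stable. Late against early enterocytes called 42 genes, 1177 without the filter, 2303 with the block and 7 with a score without apolipoproteins, and goblet cells called 1466, 3119 with the block and 549 with 1 cluster. With the block CHE cells called 1961 in place of 1225 and tuft cells 3396 in place of 2213. On library totals the share of higher genes among those called went from 42.1% to 70.4% in CHE cells, 42.8% to 71.6% in endocrine cells, 48.2% to 81.3% in tuft cells, 70.9% to 90.7% in goblet cells and 73.8% to 19.3% in late enterocytes. The causes were not tested. Leaving out 1 rat left no residual degrees of freedom, so each rat alone gives values without a test, and no count of calls. With rat 1 alone the sign differed from the main result in 3 of the 24 results, none of them called. These were Reg1a in late against early enterocytes, Reg3g in Paneth-transcript against goblet cells and Reg4 in CHE cells. With rat 2 alone it differed in 0. Of 100 shares of cells, 40 left their interval without thinning, 7 at a limit of 20% mitochondrial UMIs and none without called doublets. The 7 CHE cells of rat 1 and the 20 and 11 endocrine cells limit what could be seen in those classes.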
